A study of Mus musculus with 54 samples.

Results

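The genes of the MYC network and of the D cyclins with their kinases were followed across mouse medulloblastoma and normal cerebellum. They are Myc, Mycn, Mycl, Max and Mxd3, and Ccnd1, Ccnd2, Ccnd3, Cdk4 and Cdk6. They were chosen by name, as growth effectors of hedgehog signalling in granule neuron progenitors, and are 10 of the 53379 gene identifiers counted. All 10 were found in the count files. Gene positions below are those of GENCODE M21 on GRCm38.

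RNA was sequenced in bulk from cerebellar tumours of 2 mouse models and from normal cerebellum, each 5 h after 1 Gy of radiation or sham treatment. Normal cerebellum came from C57BL/6 mice, and its groups are called BL6 sham and BL6 1 Gy. The SmoA1 tumours carry the strain label SmoA1 homo, and SmoA1 is an activated form of Smoothened, the transducer of the hedgehog signal. The Ptc tumours came from Ptc het mice, which have a single working copy of Ptch1, the hedgehog receptor that restrains Smoothened. In the published SmoA1 line the transgene is driven by the Neurod2 promoter, which acts in granule neurons. The labels name no promoter, age, sex or number of animals. Each of the 6 groups holds 3 libraries, and the control of each model received sham treatment.

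MYC, MYCN and MYCL are transcription factors that bind the E-box as dimers with MAX and raise genes of growth and ribosome production, while proteins of the MXD family compete with them for MAX. D cyclins bind and activate CDK4 and CDK6, which phosphorylate the RB protein and release the E2F factors that begin DNA replication. In granule neuron progenitors, the cells from which hedgehog medulloblastoma arises, hedgehog signalling is known to raise Mycn, Ccnd1 and Ccnd2.

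Promoters were taken from RefSeq on GRCm38.p6 for 7 of the 10 genes, as 250 bases before to 50 bases after the RefSeq start. Distances of motifs are counted from that start, which can differ from the start of the GENCODE gene. The Mycl and Cdk6 promoters lie wholly inside the GENCODE genes. No promoter was matched for Myc, Ccnd1 and Ccnd2. The motifs searched, on both strands, were the E-box CACGTG, an E2F site written TTTGGCGC or TTTCCCGC, and a GLI site written GACCACCC. The E-box is in 7.15% of the 32851 mouse promoters in the same table, the E2F letters are in 1.56% and the GLI letters in 0.807%. The 4 promoters below belong to the Myc paralogues and kinases described here that hold a motif, and the capitals mark it. The Mycn promoter (chr12:12941787-12942086, minus strand) has the E2F letters at 183 and 168 bases before the start. The Mycl promoter (chr4:122995681-122995980, plus strand) has the GLI letters at 53 bases before the start. The Cdk4 promoter (chr10:127063285-127063584, plus strand) has 4 E-boxes, and the Cdk6 promoter (chr5:3343643-3343942, plus strand) has 1.
Mycn: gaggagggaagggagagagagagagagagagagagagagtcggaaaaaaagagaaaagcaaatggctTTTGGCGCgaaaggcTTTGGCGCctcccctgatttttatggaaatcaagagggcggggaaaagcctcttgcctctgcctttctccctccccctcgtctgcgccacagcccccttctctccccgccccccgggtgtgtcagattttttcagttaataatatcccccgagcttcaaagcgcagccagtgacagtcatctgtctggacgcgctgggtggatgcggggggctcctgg
Mycl: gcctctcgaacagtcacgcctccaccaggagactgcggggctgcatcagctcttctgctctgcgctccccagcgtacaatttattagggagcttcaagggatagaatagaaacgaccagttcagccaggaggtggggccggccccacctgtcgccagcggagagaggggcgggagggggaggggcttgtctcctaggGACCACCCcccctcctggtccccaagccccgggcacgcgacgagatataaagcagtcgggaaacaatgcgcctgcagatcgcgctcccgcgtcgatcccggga
Cdk4: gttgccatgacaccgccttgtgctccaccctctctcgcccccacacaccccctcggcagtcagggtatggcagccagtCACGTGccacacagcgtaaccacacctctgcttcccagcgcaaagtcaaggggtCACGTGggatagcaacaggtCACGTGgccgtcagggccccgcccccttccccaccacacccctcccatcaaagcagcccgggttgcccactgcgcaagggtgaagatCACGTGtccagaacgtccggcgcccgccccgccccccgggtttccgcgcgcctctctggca
Cdk6: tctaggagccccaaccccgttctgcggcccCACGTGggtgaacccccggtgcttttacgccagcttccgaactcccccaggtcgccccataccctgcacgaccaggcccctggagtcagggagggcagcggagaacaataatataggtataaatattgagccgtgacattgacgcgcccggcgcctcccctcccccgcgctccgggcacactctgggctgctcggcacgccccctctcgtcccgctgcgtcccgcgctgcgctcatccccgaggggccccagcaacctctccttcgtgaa
A match is a description of the letters and not a measured binding site. The Max promoter has 1 E-box at 3 bases before the start, and those of Mxd3 and Ccnd3 hold none of the letters searched.

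The BL6 and SmoA1 libraries are shallow, with 540652 to 842997 counts in genes and 45.8% to 76.1% of reads unmapped. In these libraries 70.4% to 75.0% of uniquely mapped reads lay outside annotated exons. The Ptc libraries hold 34124031 to 51330146 counts, with 2.53% to 6.16% of reads unmapped. Levels are counts scaled to library depth (CPM), set over the 12 BL6 and SmoA1 libraries and separately over the 6 Ptc libraries, so a level in Ptc is not set against one in the others. Model and library type cannot be told apart there. The 10 genes had 3 to 210 counts per library in BL6 and SmoA1 and 116 to 78289 in Ptc. Their counts per exonic kb were 8.86 to 153 times those of 1134 olfactory receptor genes, which brain hardly expresses, in BL6 and SmoA1. The same ratio was 164 to 41713 in Ptc. Counts of 4 Y-linked genes were 251 to 309 in BL6 1 Gy replicates 2 and 4, SmoA1 sham replicate 2 and SmoA1 1 Gy replicate 1. They were 12852 in Ptc 1 Gy replicate 1 and 0 to 26 in the other 13 libraries. High and low Y-linked counts both occur within BL6 1 Gy, SmoA1 sham, SmoA1 1 Gy and Ptc 1 Gy. Each of these groups therefore holds tissue of more than 1 animal. BL6 sham and Ptc sham had low counts only. Sex was thus unbalanced between sham and 1 Gy in BL6 and Ptc, and between SmoA1 and BL6, and its part was not tested. Whether every numbered sample is another animal is not stated in the labels. The p-values cover the spread between numbered samples alone, part of which may be technical.

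Tissue labels were checked against marker genes. Atoh1, the factor that defines granule neuron progenitors, had a mean of 6.98 ± 2.32 CPM (SD, n = 3) in BL6 sham and 43.6 ± 12.4 CPM in SmoA1 sham. Mki67, a marker of dividing cells, had 35.9 ± 8.45 CPM and 209 ± 30.6 CPM. Every marker of every cell type listed had counts in all libraries. Of the hedgehog genes, Smo was 92.2 ± 6.64 CPM in SmoA1 sham against 44.4 ± 0.0979 CPM in BL6 sham, and transgene and native transcripts cannot be told apart in this count.

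In sham-treated tissue 5 of the 10 genes were higher in SmoA1 tumour than in BL6 cerebellum, and 0 were lower. They were Mycn, Mycl, Mxd3, Ccnd2 and Cdk6. Of all 16428 genes tested, 7.07% were called higher and 9.4% lower. Calls are at an adjusted p under 0.05 by edgeR's quasi-likelihood test with Benjamini-Hochberg adjustment over all genes tested, and the same holds for each test below. The median log2 fold change was 0.69 for the 10 genes and 0.01 for all genes. After 1 Gy, 4 of the 10 genes were higher in SmoA1 than in BL6 and 0 were lower, against 4.33% called higher and 2.58% lower of 16990 genes. These were Mxd3, Ccnd1, Ccnd2 and Cdk6. Mxd3, Ccnd2 and Cdk6 were called in both comparisons.

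In sham, 6 of the 10 genes were higher in SmoA1 with no overlap between libraries, against 15.2% of all genes, and after 1 Gy 4 were, against 11.6%. In sham SmoA1 tumour, markers of other cells also differed from BL6. Of 10 mature granule neuron markers 7 were lower, of 8 Purkinje markers 6 were lower, and of 8 interneuron markers 7 were lower. Of 10 progenitor markers 5 were higher, and of 10 microglia markers 3 were higher. Of 8 oligodendrocyte markers 4 were lower and 1 higher, and of 5 oligodendrocyte precursor markers 2 were higher. Of 8 astrocyte and Bergmann glia markers 1 was higher and 1 lower. Of 5 choroid plexus markers 1 was lower, and of 8 endothelial markers 0 were called. Of all genes 7.07% were called higher and 9.4% lower. After 1 Gy the counts were 1 of 10 mature granule, 1 of 9 Purkinje and 2 of 8 interneuron markers lower and 3 of 10 progenitor markers higher. There 1 of 8 astrocyte and Bergmann glia markers was lower, and 1 of 10 microglia and 1 of 5 oligodendrocyte precursor markers were higher. Of all genes 4.33% were called higher and 2.58% lower. The summed level of the interneuron list ran from 717 to 776 CPM in BL6 sham and from 353 to 379.6 CPM in SmoA1 sham, and that of the progenitor list from 746 to 793 CPM and from 1006 to 1249 CPM. Fewer cells of a type and less RNA per cell cannot be told apart in bulk tissue, and the part of these shifts in the differences between SmoA1 and BL6 was not tested.

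**Figure D1:**
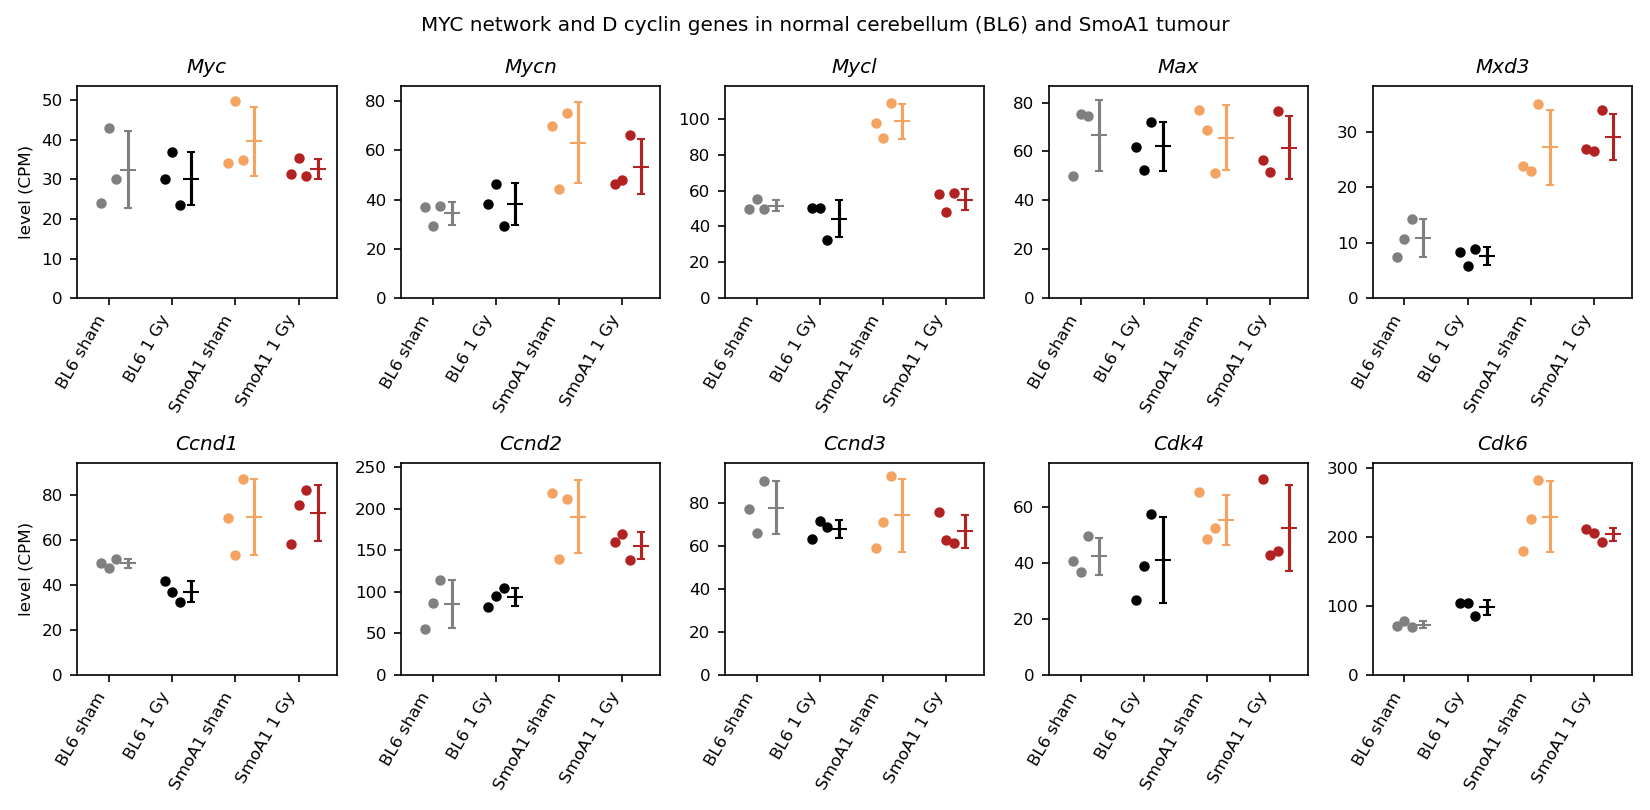
Level in CPM (linear axes from 0) of each gene in the 12 BL6 and SmoA1 libraries, with each point 1 library and the bar at its right the mean and SD of the 3. The SmoA1 sham points of Mycl lie at 89.0 to 109 CPM and the SmoA1 1 Gy points at 48.0 to 58.8 CPM, while the Cdk6 points of SmoA1 lie above all BL6 points under both treatments.

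Mycn (ENSMUSG00000037169, chr12:12936093-12941914, minus strand) encodes the MYC paralogue that hedgehog signalling raises in progenitors. It lay at 37.0, 29.2 and 37.3 CPM in BL6 sham and at 69.7, 44.5 and 75.2 CPM in SmoA1 sham. The groups did not overlap, and SmoA1 sham replicate 2 was the lowest tumour library. The log2 fold change was 0.87 ± 0.24 (SE), or 1.83-fold, with an adjusted p of 0.0113. The call was lost with DESeq2 (adjusted p = 0.0556) and without BL6 sham replicate 2 (adjusted p = 0.0815). After 1 Gy it was 38.4, 46.5 and 29.4 CPM in BL6 and 46.2, 48.0 and 66.1 CPM in SmoA1, where the lowest tumour library overlapped the highest normal one. That difference did not pass, with a log2 fold change of 0.50 ± 0.24 and an adjusted p of 0.277. The change of the tumour difference between treatments was itself not called, at -0.37 ± 0.35 on the log2 scale (95% interval -1.08 to 0.35, adjusted p = 0.777).

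Mycl (ENSMUSG00000028654, chr4:122995652-123002485, plus strand) encodes the paralogue first found amplified in lung cancer. It lay at 49.9, 55.3 and 49.7 CPM in BL6 sham and at 97.9, 89.0 and 109 CPM in SmoA1 sham. All tumour libraries were far above all normal ones. The difference was 0.93 ± 0.18 on the log2 scale, or 1.90-fold, with an adjusted p of 0.00047. After 1 Gy the libraries lay at 50.1, 50.3 and 32.4 CPM in BL6 and at 58.1, 48.0 and 58.8 CPM in SmoA1. These overlapped, and the log2 fold change of 0.32 ± 0.23 did not pass (adjusted p = 0.526).

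Myc (ENSMUSG00000022346, chr15:61985391-61990374, plus strand), the founding member of the family, was not called in either comparison of tumour with normal tissue. It lay at 24.03, 43.0 and 30.2 CPM in BL6 sham and at 34.1, 49.6 and 34.9 CPM in SmoA1 sham. The groups overlapped, and the 95% interval of the log2 difference was -0.28 to 0.83 (adjusted p = 0.567). After 1 Gy the interval was -0.43 to 0.70 (adjusted p = 0.877). Max (ENSMUSG00000059436, chr12:76937269-76962201, minus strand) encodes the shared partner of the network. It lay at 49.9 to 75.3 CPM in BL6 sham and 51.0 to 77.1 CPM in SmoA1 sham. Its log2 difference was -0.03 ± 0.20 in sham (interval -0.45 to 0.39) and -0.04 ± 0.21 after 1 Gy (interval -0.46 to 0.39).

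Mxd3 (ENSMUSG00000021485, chr13:55325168-55329823, minus strand) encodes a MAX partner that is expressed in dividing progenitors. It had 3 to 8 counts a library in BL6. It lay at 7.39, 10.8 and 14.2 CPM in BL6 sham and at 23.7, 22.9 and 34.9 CPM in SmoA1 sham. The groups did not overlap, and the log2 fold change was 1.32 ± 0.38 (2.50-fold, adjusted p = 0.0175). The call was lost with DESeq2 (adjusted p = 0.0977) and when 1 library was left out, with adjusted p-values of 0.0864 without the first BL6 sham library, 0.0671 without the second and 0.0808 without the fourth SmoA1 sham library. After 1 Gy the levels were 8.35, 5.81 and 8.82 CPM in BL6 and 26.8, 26.5 and 33.8 CPM in SmoA1. The log2 fold change of 1.87 ± 0.40 (3.65-fold) passed, with an adjusted p of 0.00308.

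Among the D cyclins, Ccnd2 (ENSMUSG00000000184, chr6:127125162-127152193, minus strand), which mice need for a full number of cerebellar granule neurons, differed most in sham. It lay at 55.5, 86.0 and 114 CPM in BL6 sham and at 219, 139.9 and 212 CPM in SmoA1 sham. All tumour libraries exceeded all normal ones. On the log2 scale the difference was 1.15 ± 0.19 (2.22-fold, adjusted p = 8.23e-05). After 1 Gy the levels of 81.8, 94.9 and 104 CPM in BL6 and 159, 169 and 138 CPM in SmoA1 gave 0.73 ± 0.15 (1.66-fold, adjusted p = 0.00199).

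Ccnd1 (ENSMUSG00000070348, chr7:144929931-144939925, minus strand) encodes a cyclin that hedgehog signalling raises in progenitors. It lay at 49.9, 47.6 and 51.5 CPM in BL6 sham and at 69.7, 53.4 and 87.3 CPM in SmoA1 sham. The libraries did not overlap, but the log2 fold change of 0.50 ± 0.21 did not pass (adjusted p = 0.113). Leaving out SmoA1 sham replicate 2 brought it past the threshold (adjusted p = 0.0241). It also passed when counts in the column of the gene's own genome strand were used (adjusted p = 0.0402), a setting added after seeing the data. That column takes in reads shared with an overlapping antisense gene, and these cannot be assigned to either gene. After 1 Gy it lay at 41.7, 36.8 and 32.4 CPM in BL6 and at 58.1, 75.8 and 82.3 CPM in SmoA1, which did not overlap. The log2 fold change of 0.97 ± 0.22 (1.95-fold) was called, with an adjusted p of 0.00501. Reads over 1100 of its exonic bases, 23.4% of the total, overlap the antisense gene LTO1 and are lost from the unstranded count. Exonic bases of Mxd3, Ccnd2, Ccnd3, Cdk4 and Cdk6 also overlap antisense genes, at 2.63% (Cdk6 with Gm17590) to 19.7% (Cdk4 with Tspan31) of the gene for each overlapping partner. Ccnd3 (ENSMUSG00000034165, chr17:47505051-47599691, plus strand), the remaining D cyclin, showed no call in either comparison, with intervals of -0.44 to 0.34 in sham and -0.41 to 0.36 after 1 Gy.

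Cdk6 (ENSMUSG00000040274, chr5:3341485-3531008, plus strand) encodes a kinase that D cyclins activate. It lay at 70.2, 78.3 and 69.2 CPM in BL6 sham and at 179, 225 and 282 CPM in SmoA1 sham. The lowest tumour library was above the highest normal one. This gave a log2 fold change of 1.66 ± 0.16 (3.16-fold, adjusted p = 1.04e-07), the largest of the 10. After 1 Gy levels were 104, 105 and 85.3 CPM in BL6 and 211, 206 and 192 CPM in SmoA1. Here it was 1.06 ± 0.14 (2.09-fold, adjusted p = 9.85e-06). Cdk4 (ENSMUSG00000006728, chr10:127063534-127067920, plus strand) encodes the other kinase. It lay at 40.7, 36.9 and 49.7 CPM in BL6 sham and at 65.2, 48.3 and 52.4 CPM in SmoA1 sham. Its groups overlapped, and the log2 difference of 0.38 ± 0.22 did not pass (interval -0.07 to 0.83, adjusted p = 0.269). Mycl, Ccnd2 and Cdk6 were called in sham under all 14 alternatives, and Mxd3, Ccnd1, Ccnd2 and Cdk6 after 1 Gy under all 14.

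**Figure D2:**
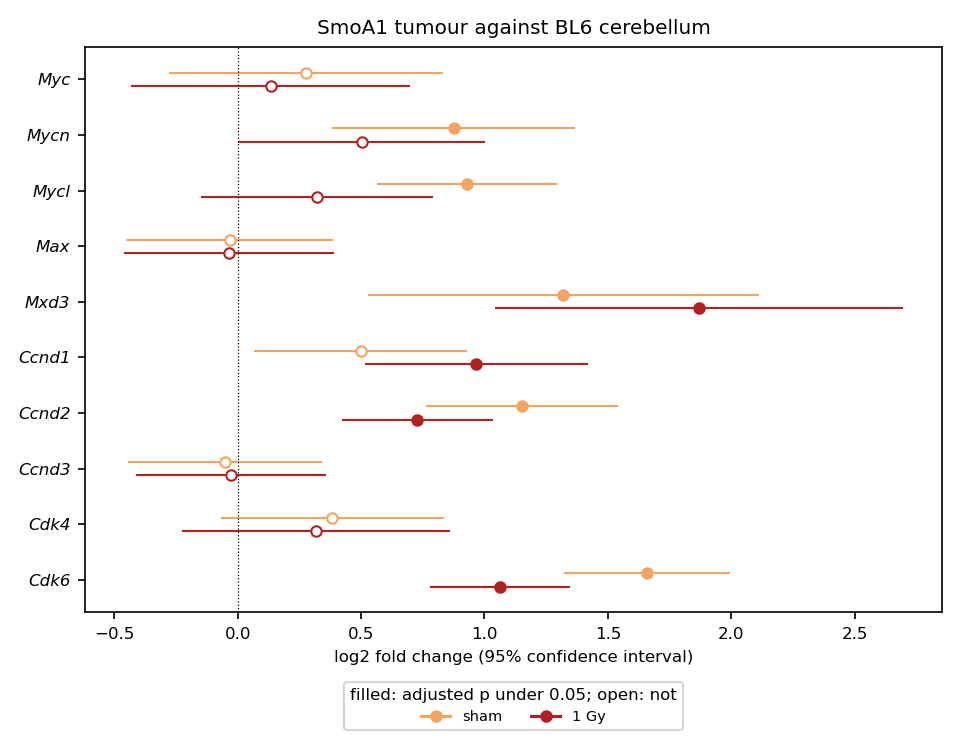
Log2 fold change of SmoA1 tumour against BL6 cerebellum with its 95% confidence interval, for sham and 1 Gy libraries, with filled points called at an adjusted p under 0.05. The Cdk6 value is 1.66 in sham and 1.06 after 1 Gy. The intervals of Myc, Max, Ccnd3 and Cdk4 span 0 under both treatments, and that of Mycl does so after 1 Gy.

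Other genes of these pathways were counted from fixed lists, against medians of 0.01 in sham and -0.01 after 1 Gy for all genes on the log2 scale. Of 28 MYC target genes tested, 3 were higher in sham SmoA1 tumour (list median 0.25), against 7.07% of all genes called higher. They were Nolc1 (1.71-fold) and Gnl3 (1.52-fold), which serve the nucleolus, and Cad (1.53-fold), which starts pyrimidine synthesis. After 1 Gy 0 of 28 were called by edgeR, 0 had an unadjusted p under 0.05, and the median was 0.06. Of 8 other genes of the MYC, MAX and MLX network, Mlxipl, which encodes a glucose-responsive partner of MLX, was lower, at 0.366-fold in sham and 0.51-fold after 1 Gy, and the list medians were 0.08 and -0.03. All genes called lower were 9.4% in sham and 2.58% after 1 Gy.

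Of 14 partners, inhibitors and substrates of the D cyclin kinases, 3 were higher in sham (list median 0.26), against the same 7.07% of all genes. They were Foxm1 (1.93-fold), a factor for mitotic genes, Cdk2 (1.89-fold), the kinase that acts after CDK4 and CDK6, and Cdkn1a (1.99-fold), which encodes p21. After 1 Gy Cdkn2a was the 1 gene of 14 called higher (3.43-fold, list median 0.16), against 4.33% of all genes. Its products include the p16 inhibitor of CDK4 and CDK6, and the gene count does not tell its transcripts apart. Among 16 regulators of MYC protein stability, Aurka (1.75-fold) and Fbxo28 (1.56-fold) were higher in sham. Fbxw7, the ubiquitin ligase subunit that marks MYC proteins for destruction, was lower (0.728-fold), and the list median was 0.15. These 2 higher and 1 lower of 16 stand against 7.07% and 9.4% of all genes. With so few members, counts of 1 to 3 are given only as a description of the named genes, and no list was tested as a set. Among 12 hedgehog genes 4 were higher in sham, against 7.07% of all genes. They included Smo (2.08-fold), Gli1 (1.73-fold) and Sufu (1.42-fold). Shh was lower (0.348-fold), against 9.4% of all genes, and the list median was 0.30. Ptch1 lay at 207.5 ± 26.5 CPM (SD, n = 3) in BL6 sham and 227.0 ± 14.7 CPM in SmoA1 sham, and these libraries overlapped. After 1 Gy Smo (2.12-fold) was the 1 gene of 12 called, against 4.33% of all genes called higher, with a list median of 0.10.

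After 1 Gy Mycl fell in SmoA1 tumour, and the other 9 genes were not called. Mycl went from 97.9, 89.0 and 109 CPM in sham to 58.1, 48.0 and 58.8 CPM after 1 Gy, with no overlap. The log2 fold change was -0.85 ± 0.17 (0.554-fold, adjusted p = 0.0111). Across 16690 genes 2.17% were called in either direction, 0.192% were called lower and 8.85% were lower with no overlap. The call was lost without SmoA1 1 Gy replicate 2 (adjusted p = 0.110), when the log2 fold change was -0.76. In BL6 cerebellum Mycl had -0.24 ± 0.23 (adjusted p = 0.998), and the difference in change between SmoA1 and BL6 was -0.60 ± 0.29 (interval -1.18 to -0.01, adjusted p = 0.429). In the other 9 genes the SmoA1 values lay between -0.29 (Myc and Ccnd2) and 0.08 (Mxd3), and none was called.

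Sums of mature neuron markers moved in the same SmoA1 comparison. Called higher were 2 of 8 interneuron, 1 of 8 Purkinje and 1 of 10 mature granule markers, and 0 were called lower. Of all genes 2.17% were called in either direction. The interneuron sum was 353 to 379.6 CPM in sham and 646, 599 and 449 CPM in 1 Gy replicates 1, 2 and 3. The Purkinje sum was 516 to 538 CPM in sham and 846, 851 and 541 CPM. The mature granule sum was 580 to 666 CPM in sham and 907, 885 and 563 CPM. In replicate 3 the Purkinje and mature granule sums (541 and 563 CPM) were near the sham ranges of 516 to 538 and 580 to 666 CPM. The interneuron sum of that library (449 CPM) was above its sham range. Mycl was 58.1, 48.0 and 58.8 CPM in replicates 1, 2 and 3. The part of these markers in the fall of Mycl was not tested. Of 16 stability regulators Trim6, a ubiquitin ligase gene, rose in SmoA1 after 1 Gy (2.70-fold, adjusted p = 0.0360). Of 30 MYC targets 0 were called there by edgeR, with 5 at an unadjusted p under 0.05 and a median log2 fold change of -0.19 against -0.02 for all genes.

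In BL6 cerebellum 0 of the 9 genes that passed the filter were called after 1 Gy, against 2 of 15918 genes (0.0126%), and 1 gene (Cdk6) had an unadjusted p under 0.05 (0.0219). Cdk6 lay at 69.2 to 78.3 CPM in sham and 85.3 to 105 CPM after 1 Gy, which did not overlap (log2 0.42 ± 0.17, adjusted p = 0.998). Ccnd1 lay at 47.6 to 51.5 CPM and 32.4 to 41.7 CPM, also with no overlap (log2 -0.42 ± 0.23, adjusted p = 0.998). Of all genes, 4.61% were higher and 4.88% lower with no overlap. Mxd3 did not pass the filter on low counts in this comparison.

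**Figure D3:**
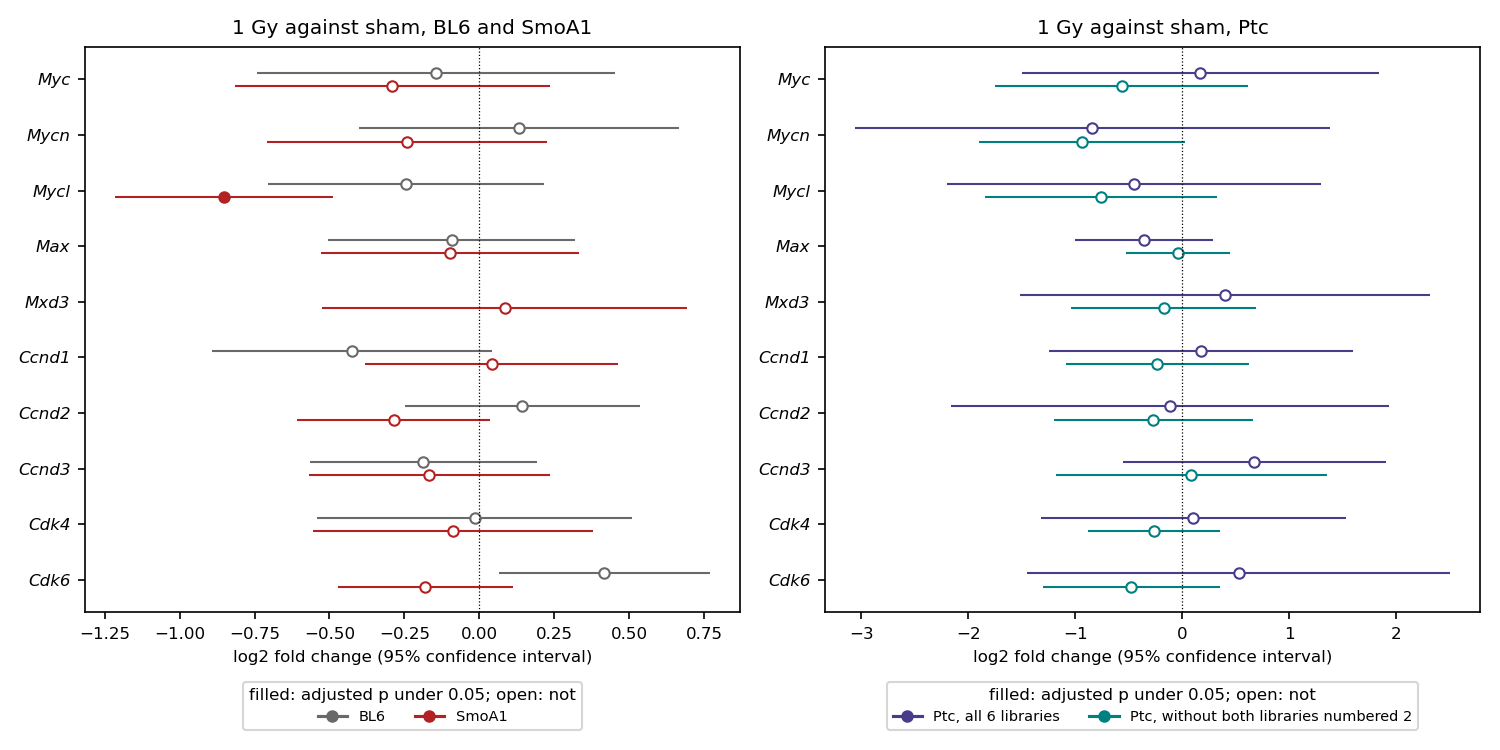
Log2 fold change of 1 Gy against sham with its 95% confidence interval, in BL6 and SmoA1 (left) and in Ptc with all libraries and without the libraries numbered 2 (right), with filled points called at an adjusted p under 0.05. Only Mycl in SmoA1, at -0.85, is filled, and Mycn in Ptc has an interval of -3.06 to 1.38 with all libraries.

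In Ptc tumours the libraries numbered 2 stand apart in some markers, and other libraries do so in other markers. In Ptc sham replicate 2 Mki67 was 69.5 CPM against 844 and 512 CPM, and the Purkinje marker sum was 8818 CPM against 231 and 1977 CPM. In Ptc 1 Gy replicate 2 Atoh1 was 14.3 CPM against 52.2 and 323 CPM, and the microglia sum was 2420.4 CPM against 356 and 1326 CPM. Mki67 was not low in that library, at 612 CPM against 405 and 574 CPM. The mature granule sum was 3928 CPM in 1 Gy replicate 1 against 516 and 973 CPM. The choroid plexus sum was 360 CPM in 1 Gy replicate 3 against 4.07 and 73.9 CPM. Log2 fold changes are therefore given with all 6 libraries and without both libraries numbered 2, and the part of these markers in the results was not tested.

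Mycn lay at 453, 37.9 and 309 CPM in Ptc sham replicates 1, 2 and 3, and at 144, 46.9 and 256 CPM after 1 Gy. Both libraries numbered 2 were far below the rest. The log2 fold change was -0.84 ± 0.93 with all 6 libraries (adjusted p = 0.828) and -0.94 ± 0.37 without them (adjusted p = 0.852, p = 0.0534 unadjusted). Mycl lay at 261, 27.3 and 127 CPM and at 91.5, 73.0 and 139 CPM, and Myc at 45.7, 6.32 and 25.2 CPM and at 15.95, 38.7 and 32.2 CPM. In both genes sham replicate 2 was the lowest library of the 6.

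Ccnd2 lay at 1827, 166 and 1155 CPM in Ptc sham and 1419.8, 425 and 1062 CPM after 1 Gy. Ccnd1 lay at 328, 55.2 and 207 CPM and at 187, 208 and 269.8 CPM, and Cdk4 at 443, 76.7 and 357 CPM and at 308, 273 and 361 CPM. Sham replicate 2 was again the lowest in these 3 genes. Cdk6 lay at 609.7, 52.7 and 405 CPM and at 307, 804 and 426 CPM, so its 2 most extreme libraries are both numbered 2. Ccnd3 was lower in 1 Gy replicate 1 (21.7 CPM) than in sham (38.0 to 40.1 CPM) and higher in replicates 2 and 3 (102 and 61.7 CPM). Max ran from 65.3 to 137 CPM, and Mxd3 from 2.50 to 31.9 CPM. With all libraries 6 of the 10 log2 fold changes were above 0, and without both libraries numbered 2 only that of Ccnd3 was (0.08 ± 0.50). That of Cdk6 turned from 0.53 ± 0.83 to -0.48 ± 0.32 and that of Ccnd1 from 0.17 ± 0.59 to -0.23 ± 0.33, none of them called.

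**Figure D4:**
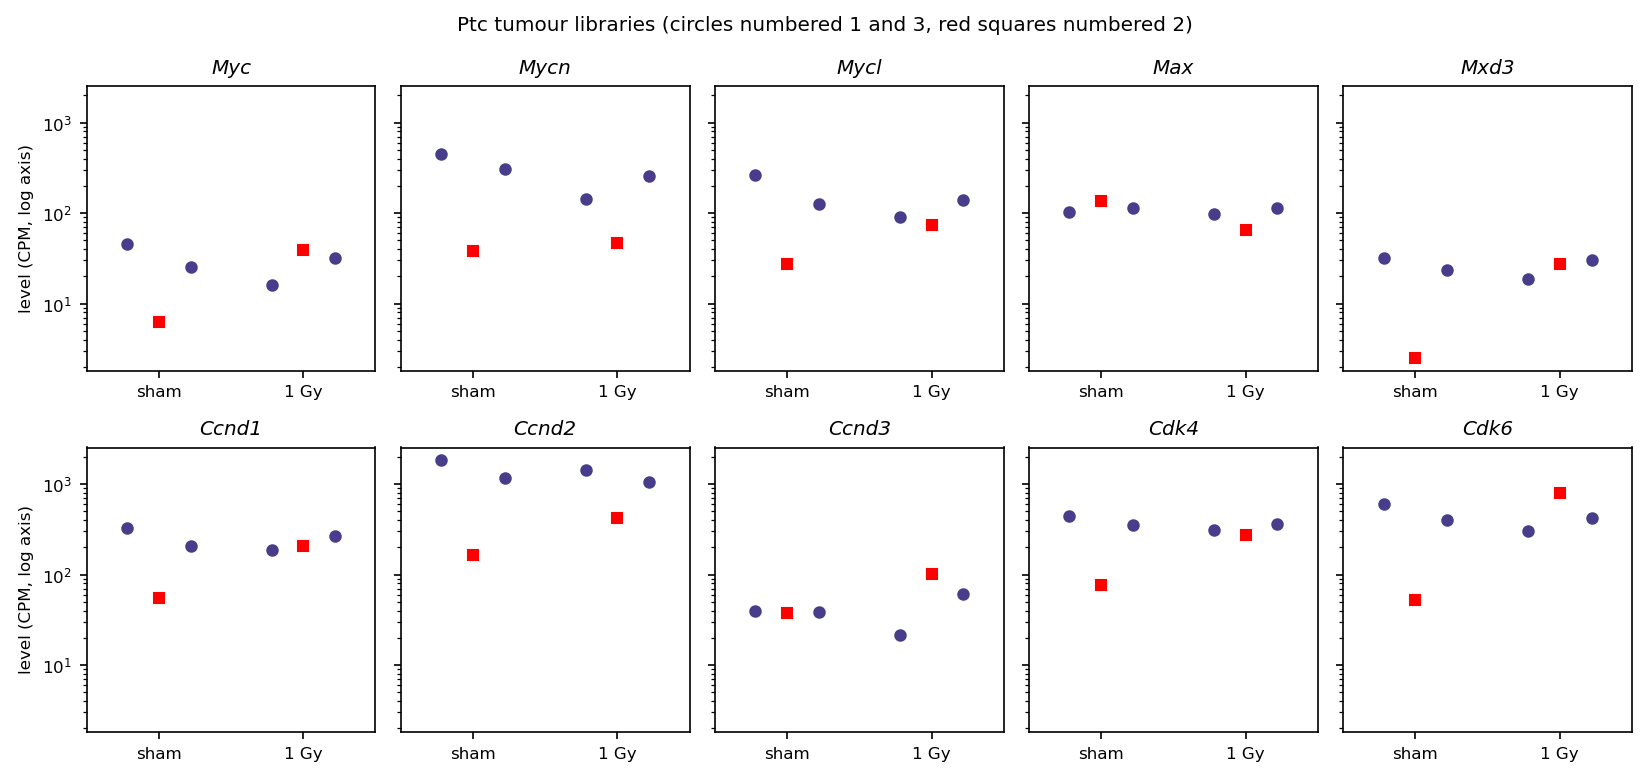
Level in CPM on a log axis of each gene in the 6 Ptc libraries, with circles for replicates 1 and 3 and red squares for replicate 2. The squares of Mycn, at 37.9 and 46.9 CPM, lie below all circles, which run from 144 to 453 CPM.

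None of the 10 genes was called after 1 Gy in Ptc. By edgeR 0 of all 19571 genes (0%) were called there, 1421 had an unadjusted p under 0.05, and DESeq2 called 327. Among the 10 genes DESeq2 called 0, 0 had an unadjusted p under 0.05 by edgeR, and sham and 1 Gy libraries overlapped in all 10. Of all genes 7.06% were higher and 6.33% lower with no overlap. Without the libraries numbered 2, edgeR called 0 of 19686 genes. In the test of whether the change after 1 Gy differs between Ptc and SmoA1, edgeR and DESeq2 called 0 of the 10 genes, 0 had an unadjusted p under 0.05, and edgeR called 1 of 27377 genes (0.00365%), or 8 of 18429 (0.0434%) without both libraries numbered 2. The 1 gene was Cdkn1a (adjusted p = 0.0275), at 56.2 to 68.2 CPM in Ptc sham and 270.3 to 433 CPM after 1 Gy. In SmoA1 it lay at 53.4 to 69.8 CPM in sham and 38.2 to 50.5 CPM after 1 Gy. The edgeR call was lost with RLE factors, at an adjusted p under 0.01 and when any SmoA1 library was left out. In Ptc the log2 difference of Mycl against SmoA1 was 0.54 ± 0.83 (interval -1.26 to 2.33) with all libraries and 0.09 ± 0.44 without the libraries numbered 2. Between SmoA1 and BL6 0 of the 10 genes were called in this test by edgeR or DESeq2, against 1.06% of 18188 genes, and 2 of them, Mycl and Cdk6, had an unadjusted p under 0.05 (0.0454 and 0.0141).

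Shares within a family were set per exonic kb. In Ptc sham Ccnd2 held 72.4%, 52.3% and 71.8% of the D cyclin total, and Mycn 62.8%, 55.9% and 69.7% of the MYC paralogue total. In Ptc 1 Gy replicates 1, 2 and 3 Ccnd2 held 78.1%, 44.8% and 63.7%, and Mycn 60.5%, 30.6% and 62.6%. In 1 Gy replicate 2 Ccnd1 (43.7%) was close to Ccnd2, and Mycl (38.8%) held more than Mycn. In BL6 sham Ccnd2 held a mean of 31.2% ± 6.96 (SD, n = 3) and in SmoA1 sham 46.3% ± 4.90. Ccnd3 held 31.3% ± 3.42 in BL6 sham and 19.7% ± 4.34 in SmoA1 sham. Overlapping antisense genes cost Ccnd1 counts, and on the strand column the Ccnd2 share in Ptc sham was 65.1%, 44.7% and 63.5%. In Ptc 1 Gy replicate 2 that column gave Ccnd1 50.6% and Ccnd2 37.9%.

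**Figure D5:**
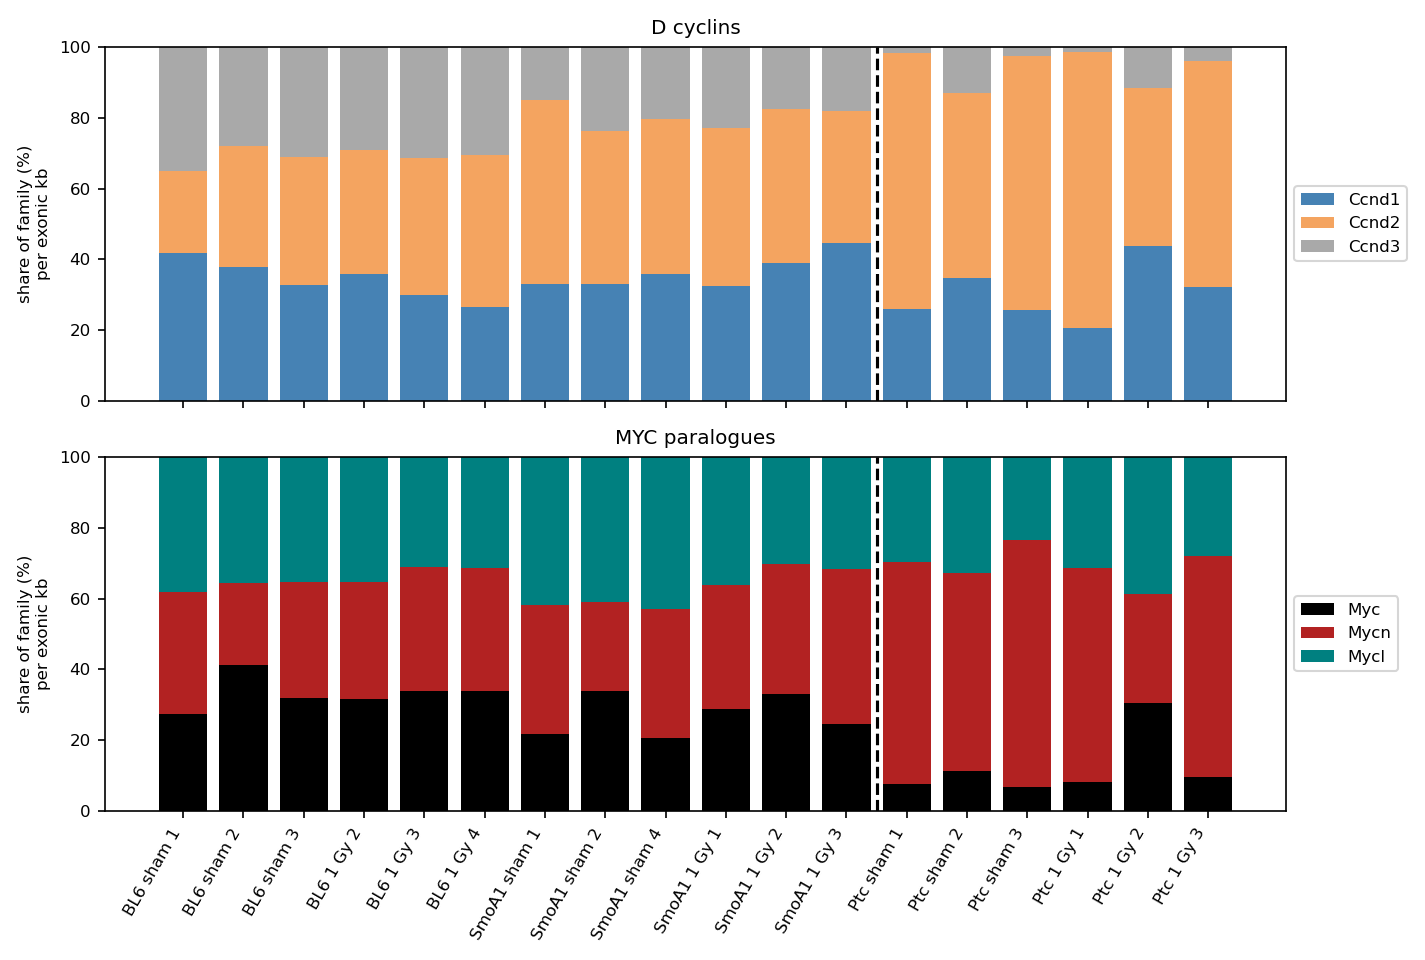
Share in percent, per exonic kb, of each D cyclin (top) and each MYC paralogue (bottom) in the total of its family for every library, with a dashed line before the Ptc libraries. Ccnd2 holds 52.3% to 72.4% of the D cyclins in Ptc sham, and Mycn 55.9% to 69.7% of the MYC paralogues, while in Ptc 1 Gy replicate 2 they hold 44.8% and 30.6%.

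The genes whose levels followed Mycn most closely over the 12 BL6 and SmoA1 libraries were Sept1 (r = 0.92), Myod1 (0.92) and Polh (0.92), of 15163 compared by Pearson correlation. For Ccnd1 they were Otog (r = 0.93), Bod1 (0.92) and Rad51b (0.91), and for Ccnd2 Tktl1 (0.95), Adgrg1 (0.92) and Depdc1a (0.92). The points share library type and depth, and no p-value is given. They pool tumour and normal libraries of both treatments, so a shift between SmoA1 and BL6 common to the genes raises r by itself. Correlation within groups was not computed.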

How the data were processed

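Each deposited file gives raw counts of reads per gene, unstranded in 1 column and by strand in the other 2, as STAR writes gene counts. The submitters' processing notes name mm10 and Cell Ranger 5.0.1, with the aligner not given in the sources used here. The labels state total RNA extracted with RNeasy and ribosomal RNA depletion.

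The 54 files were summed by sample number into 18 libraries, since the 4 files of a BL6 or SmoA1 number varied no more than random draws (variance to mean ratio 0.857 to 0.938). The unstranded column was used. In the BL6 and SmoA1 files 99.1% to 99.4% of the strand counts of plus-strand genes and 0.444% to 0.627% of those of minus-strand genes lie in 1 column, so the reads show no strand of origin and antisense partners cannot be told apart. Symbols and positions came from GENCODE M21 on GRCm38. Genes were filtered with filterByExpr, scaled with TMM and tested by edgeR 4.0.16 (R 4.3.3) quasi-likelihood tests with Benjamini-Hochberg adjustment over all genes tested, called under 0.05. Each pair of groups was fitted alone, and differences between models as interactions over 12 libraries. The alternatives are in the closing section. The fits were also run on simulated counts with known fold changes, with the spread estimated from these data. That run says nothing on fold changes smaller than those simulated. All 10 genes are named in each comparison, and from each list up to 3 called genes per direction by smallest p, except 1 gene that is not reported here. The genes and lists were chosen with earlier results of these data known. Promoters came from RefSeq.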

Additional observations from a re-analysis of the deposited data

How the results depend on the processing

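The calls for Mycl, Ccnd2 and Cdk6 in sham and for Mxd3, Ccnd1, Ccnd2 and Cdk6 after 1 Gy held under all 14 alternatives and at an adjusted p under 0.01. The alternatives were DESeq2, other normalizations and filters, the strand column, 12 libraries in 1 fit, the block and each library left out. The strand column with the larger total was run for Ptc only, since it could not be chosen in BL6 and SmoA1. The column of the gene's own genome strand was added after seeing the data. Of the member results, 1131 kept their side of the threshold, 12 lost a call and 2 gained one. With no low-count filter and with a mean of at least 1 CPM, the number of genes called was 4422 and 4162 for SmoA1 against BL6 in sham (2705 as reported), 2235 and 1958 after 1 Gy (1175), 969 and 614 for 1 Gy in SmoA1 (363), and 16 and 8 for 1 Gy in BL6 (2). An adjusted p under 0.01 gave 1732, 695 and 128 in the first 3. DESeq2 called 327 genes for 1 Gy in Ptc, 102 for the change in SmoA1 against BL6 (193) and 110 for that in Ptc against SmoA1 (1). No filter gave 1 gene in Ptc, 449 for the change in SmoA1 against BL6 and 7 for Ptc against SmoA1, and an adjusted p under 0.01 gave 56 and 0. RLE factors gave 0 for Ptc against SmoA1 and leaving out both Ptc libraries numbered 2 gave 8. With all 12 BL6 and SmoA1 libraries in 1 fit, 766 genes were called for 1 Gy in SmoA1 and 1 in BL6. Leaving out 1 library gave 2144 to 2856 genes in sham, 848 to 1267 after 1 Gy, 109 to 445 for 1 Gy in SmoA1, 0 to 6 in BL6, 0 to 0 in Ptc, 83 to 291 for SmoA1 against BL6 and 0 to 91 for Ptc against SmoA1. The cause was not tested. Of the alternative values of mean levels, 27 moved by at least 1 SD, each with the first part of a library in place of the sum of its 4 parts, and 73 moved by less.

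Deviations of same-numbered libraries correlated between -0.041 and 0.076 in BL6 and SmoA1 and between -0.001 and 0.19 in Ptc. Beyond these values, whether sample numbers pair the samples was not tested, and the main fits leave the number out. With the number as a block, 1960 genes were called in sham, 1256 after 1 Gy, 551 for 1 Gy in SmoA1, 7 in BL6, 0 in Ptc, 248 for SmoA1 against BL6 and 0 for Ptc against SmoA1. Mycn and Mxd3 in sham lost their calls (adjusted p = 0.0748 and 0.104), and no other call among the 10 genes changed. Counts of 3 to 210 limit what BL6 and SmoA1 can show for single genes.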
